A study of Saccharomyces cerevisiae with 4 samples.

Results

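The proteasome subunit genes of budding yeast (Saccharomyces cerevisiae) and RPN4, the gene for the factor that activates them, were examined in newly made RNA. The members were chosen by systematic gene name, as the genes for the core, base and lid subunits of the proteasome plus RPN4. The rule used no measured value, but it was set with earlier results of these data known. Of 33 listed genes, 32 had a row among the 6030 deposited transcripts, made up of 14 core genes, 9 of 10 base genes, 8 lid genes and RPN4. The base gene RPT1 (YKL145W) was not analysed here.

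The groups were with rapa (2 libraries) and no rapa (2 libraries). All 4 libraries came from the same strain, whose genotype is given as Y40343 Ssl2-FRB::kanMX6. Ssl2 is the DNA translocase of the transcription factor TFIIH, and the FRB tag lets rapamycin tie the tagged protein to an anchor that carries it out of the nucleus. Cells were grown in YPD at 30 C and labelled with 5 mM 4-thiouracil for 6 min, and the labelled RNA was purified and sequenced. The dose and duration of rapamycin, the response of the strain to rapamycin itself, and whether replicates were separate cultures are not given in the sources used here. A strain without the tag was not analysed here, and so the removal of Ssl2 and any other action of rapamycin cannot be told apart. Each p-value reflects how far libraries of a group differ, which could be technical variation alone.

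The proteasome degrades proteins marked with ubiquitin. Its barrel-shaped core holds the proteolytic sites in rings of α and β subunits. The base unfolds substrates with a ring of ATPases, and the lid removes ubiquitin. Rpn4 binds a short sequence, the proteasome-associated control element, upstream of the subunit genes and activates them. Because Rpn4 is itself a very short-lived substrate of the proteasome, the pair forms a feedback loop in which a shortage of proteasomes lets Rpn4 accumulate.

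Reads on deposited transcripts summed to 11441998 and 12685769 in the with rapa libraries and to 32435994 and 29318499 in the no rapa libraries. A further 50.5% and 50% of reads in the with rapa libraries fell in no feature, against 33.7% and 33.1% in the no rapa libraries, and the part of this difference in the results was not tested. The 32 members took 1.12% and 1.3% of feature reads with rapa and 1.04% and 1.1% with no rapa. The fewest reads on any member in a library were 632. Levels are CPM, the count of a gene scaled to a common library size with TMM factors, so each is a share of the labelled RNA relative to the bulk of genes and not an amount per cell. In bulk cultures, fewer cells making an RNA and less of it made per cell cannot be told apart.

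RPN4 fell with rapa, and of the 31 subunit genes 8 rose and 0 passed the test as lower. A gene was called when its p from edgeR's quasi-likelihood test was under 0.05 after Benjamini-Hochberg adjustment over 5707 features. Over all of these, 19.3% were called higher and 26.7% were called lower with rapa. The share of subunit genes called higher (8 of 31) was thus near the background, while the count of 0 called lower stood beside a background of 26.7%. Without adjustment, 9 subunit genes were higher and 1 was lower at p under 0.05, and DESeq2 called 11 higher and 0 lower. The count of 0 lower depended on single libraries, since 1 lid gene was called lower without with rapa replicate 1 (RPN3) and 1 without with rapa replicate 2 (RPN9). The risers were 6 core genes (PRE6, PRE9, PRE10, PRE7, PUP3 and PUP1) and the base genes RPT6 and RPN10, with no lid gene among them.

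RPN4 (YDL020C, chrIV:414970-416945, minus strand, as in the deposited annotation on R64) had 833 and 527 CPM with rapa, against 2011 and 1926 CPM with no rapa. Both with rapa libraries lay below both no rapa libraries, and the with rapa pair differed from each other more than the no rapa pair did. The log2 fold change was -1.53 ± 0.28 (SE, edgeR), a level 2.9-fold lower with rapa (adjusted p = 0.00081). Leaving out 1 library at a time, the log2 fold change ran between -1.93 and -1.15 and stayed past the threshold. Its deposited leader, the stretch between the transcript start and the coding start, was 237 bases long, against a median of 43 bases in the subunit genes and 47 bases over open reading frames.

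The stretch directly upstream of the RPN4 transcript start is printed because RPN4 fell, and because other factors are known to drive it through this stretch. The 220 bases are chrIV:416946-417165 on R64, read 5′ to 3′ on the minus strand. Capitals mark, in order, TCCGTGGA, its reverse complement, TTACTAA and GAANNTTC, where N is any base.
RPN4: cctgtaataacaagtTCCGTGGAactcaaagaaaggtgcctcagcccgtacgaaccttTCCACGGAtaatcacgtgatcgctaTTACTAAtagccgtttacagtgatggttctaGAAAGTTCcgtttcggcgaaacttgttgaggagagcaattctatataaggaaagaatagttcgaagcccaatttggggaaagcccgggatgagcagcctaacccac
TCCGTGGA is a form of the element bound by Pdr1 and Pdr3, TTACTAA of that bound by Yap1, and GAANNTTC holds the paired GAA units read by Hsf1. TCCGTGGA began 205 bases upstream on the same strand and 162 bases upstream on the opposite strand, TTACTAA 137 bases upstream and GAANNTTC 106 bases upstream. Both strands of the 300 bases before each of 4928 open reading frame transcripts were searched. TCCGTGGA was present in 0.629% of these windows, TTACTAA in 7.79% and GAANNTTC in 12.8%. TCCGTGGA was added to the search after the RPN4 sequence had been read. The letters GTGGCAAA, the core of the proteasome-associated control element, were not in the RPN4 window.

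Most subunit genes carried this element upstream. GGTGGCAAA was present in 26 of the 31 subunit windows and in 1.48% of all 4928 windows. GTGGCAAA, the same letters without the first G and so overlapping every such match, was present in 29 of 31 subunit windows and in 3% of all windows. It was in 14 of 14 core genes, 7 of 9 base genes and 8 of 8 lid genes. RPN10 and RPN13, both receptors for ubiquitin chains, were the base genes without these letters. The stretches printed are those around the element in genes with the highest and the lowest log2 fold change of each ring or subcomplex, among those with an element and no deposited transcript over the stretch. Each is given 5′ to 3′ on the strand of its gene with 25 bases on either side, and capitals mark GTGGCAAA or its reverse complement TTTGCCAC.
PRE6 (core α, chrXV:255203-255260, plus strand): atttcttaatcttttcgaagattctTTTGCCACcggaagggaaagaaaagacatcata
SCL1 (core α, chrVII:475323-475380, minus strand): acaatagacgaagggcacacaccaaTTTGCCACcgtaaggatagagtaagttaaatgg
PRE7 (core β, chrII:141136-141193, plus strand): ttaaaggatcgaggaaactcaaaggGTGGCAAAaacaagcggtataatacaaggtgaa
PRE4 (core β, chrVI:249945-250002, minus strand): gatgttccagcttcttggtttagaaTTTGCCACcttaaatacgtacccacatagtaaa
RPT6 (base ATPase, chrVII:411337-411394, minus strand): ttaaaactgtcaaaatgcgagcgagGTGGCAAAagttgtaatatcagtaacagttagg
RPT3 (base ATPase, chrIV:1261481-1261538, plus strand): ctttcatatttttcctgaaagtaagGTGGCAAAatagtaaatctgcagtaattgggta
RPN2 (other base, chrIX:220786-220843, minus strand): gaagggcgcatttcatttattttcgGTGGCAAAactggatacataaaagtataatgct
RPN8 (lid, chrXV:817070-817127, minus strand): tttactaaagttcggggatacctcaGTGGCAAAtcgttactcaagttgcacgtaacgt
RPN3 (lid, chrV:196828-196885, plus strand): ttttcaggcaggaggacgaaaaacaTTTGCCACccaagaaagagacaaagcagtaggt
PRE6 with the highest fold change and SCL1 with the lowest of the core carried the element in the same orientation, read on the opposite strand to the gene, 75 and 83 bases upstream of the transcript start. RPN8 carried the shorter letters alone.

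In the 29 subunit genes with the element, it began between 43 and 106 bases upstream of the transcript start, with a median of 78. The median was 81.5 bases in core genes, 87 in base genes and 73.5 in lid genes. It lay on the strand of the gene in 22 genes and on the opposite strand in 7. TATAAA was present in 17 of 31 subunit windows and in 46.3% of all windows. With windows taken before the coding start in place of the transcript start, an alternative chosen after seeing the data, the count of subunit genes was the same, 26 with GGTGGCAAA and 29 with GTGGCAAA.

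**Figure D1:**
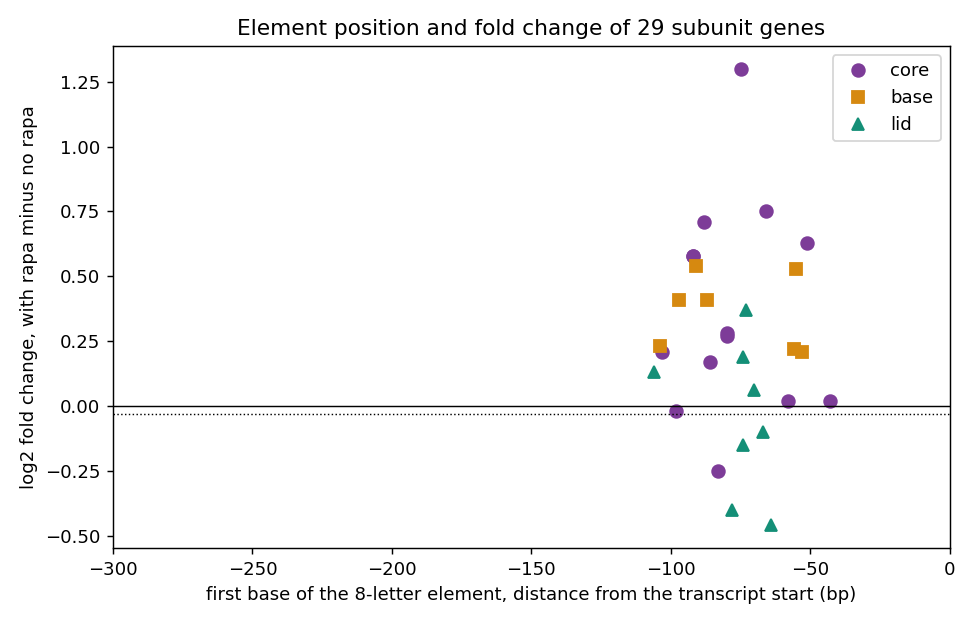
The distance of the nearest GTGGCAAA from the transcript start (horizontal axis, bp) and the log2 fold change with rapa minus no rapa (vertical axis) of 29 subunit genes, with 1 point per gene and the median of all features dotted. The elements began 43 to 103 bases upstream in core genes, 53 to 104 in base genes and 64 to 106 in lid genes. The 29 genes ran between a log2 fold change of 1.30 for PRE6 and -0.46 for RPN3.

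Of the 26 subunit genes with GGTGGCAAA, 6 were higher and 0 lower, with a median log2 fold change of 0.21. Of 47 tested open reading frames outside the subunit genes with the same letters, 13 were higher and 10 lower, with a median of 0.09. Over all features 19.3% were called higher and 26.7% lower, and whether carriers differ from other genes was not tested. The gene for ubiquitin-activating enzyme, UBA1, and that for the unfolding ATPase Cdc48 were among these carriers, as was the polyubiquitin gene UBI4. The GTGGCAAA in their elements began 79, 96 and 63 bases upstream of the start. UBA1 and CDC48 rose, as described below, while UBI4 did not pass the test (log2 fold change -0.08, edgeR adjusted p = 0.753). Of 119 tested open reading frames outside the subunit genes with the shorter GTGGCAAA, 29 were higher and 29 lower, with a median of 0.02. MUB1 and HSF1, which fell as described below, were among these 119, with the letters 113 and 54 bases upstream. The assembly gene NAS6 and the ubiquitin genes NPL4 and UBP6 were also among them, with the letters 293, 25 and 19 bases upstream. Their log2 fold changes were 0.39, 0.23 and 0.21, none past the threshold. A divergent neighbour started within 500 bp of 17 subunit genes, and of these neighbours 4 were called higher and 1 lower, beside 19.3% and 26.7% of all features, with a median log2 fold change of 0.23. Beside PRE10, which rose, the noncoding XUT_15F-453 had a log2 fold change of 1.83 (adjusted p = 0.0109), and beside PRE2, which did not pass the test, the ribosomal protein gene RPL11A had 1.88 (adjusted p = 8.05e-05). The neighbour called lower was the lipase gene TGL3 beside PRE5, at -1.74 (adjusted p = 1.19e-05), and PRE5 did not pass the test.

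**Figure D2:**
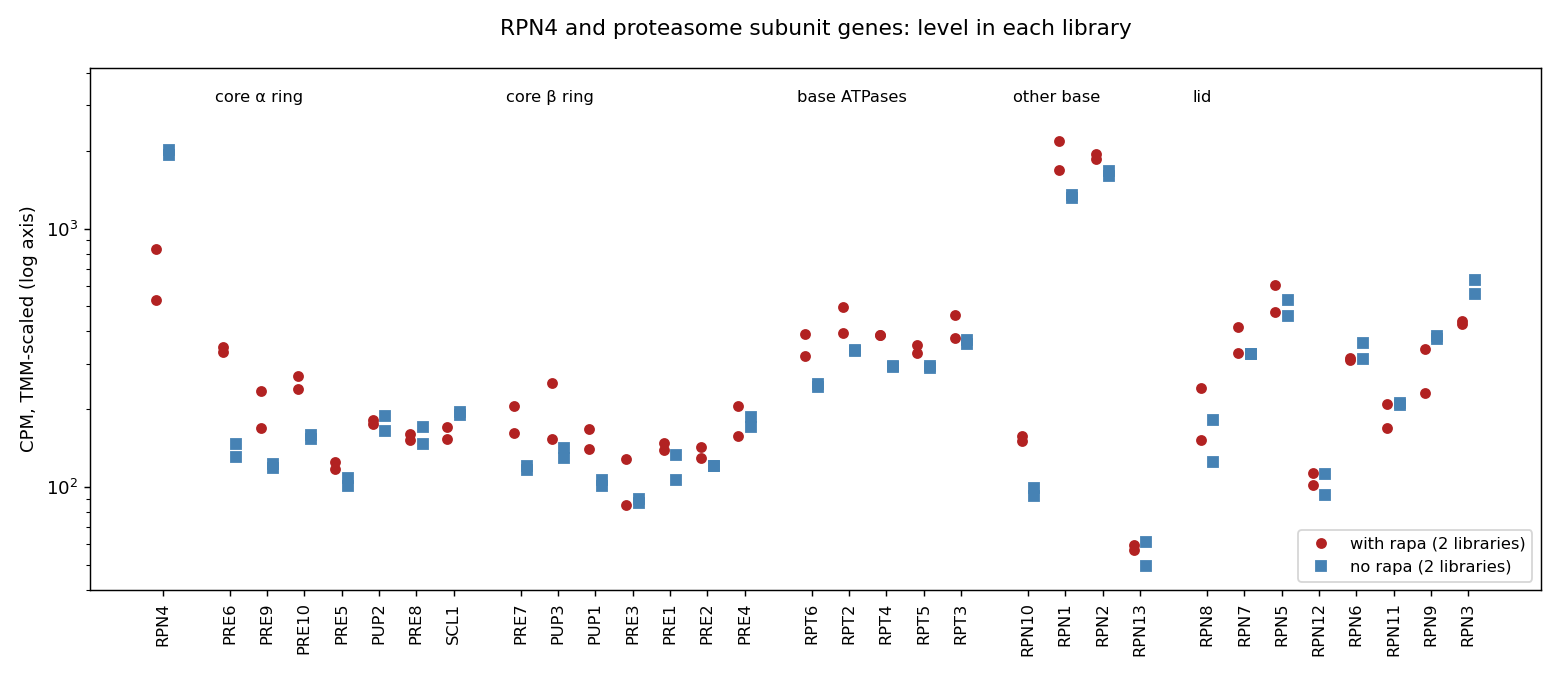
The level of RPN4 and of 31 subunit genes in each library (CPM on a log axis), with rapa as red circles left of no rapa as blue squares, 1 point per library. RPN4 with rapa lies at 833 and 527 CPM below 2011 and 1926 CPM with no rapa, and PRE6 shows the widest separation in the other direction.

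The outer α ring of the core gates entry to the proteolytic chamber, and 3 of its 7 genes rose while 0 fell, beside 19.3% and 26.7% of all features. PRE6 (YOL038W) had 333 and 347 CPM with rapa, against 131 and 146 CPM with no rapa. This was the largest change among subunit genes, with a log2 fold change of 1.30 ± 0.17 (SE, edgeR), 2.46-fold higher (adjusted p = 8.03e-05), and it passed under every alternative tried. PRE9 (YGR135W), the one core subunit that yeast can live without, had 169 and 235 CPM with rapa and 123 and 118 CPM with no rapa. Its log2 fold change was 0.75 ± 0.18 (edgeR adjusted p = 0.00572), and its deposited transcript overlaps its upstream neighbour on the same strand, so that shared reads could not be assigned. PRE10 (YOR362C) had 240 and 268 CPM with rapa and 153 and 159 CPM with no rapa, a log2 fold change of 0.71 ± 0.16 (edgeR adjusted p = 0.00392). In each of these 3 genes both with rapa libraries lay above both no rapa libraries, against 34.1% of all features. The other α genes spanned 0.21 for PRE5, 0.02 for PUP2, -0.02 for PRE8 and -0.25 for SCL1 on the log2 fold change scale, none past the threshold. SCL1 (YGL011C) had 153 and 171 CPM with rapa, against 195 and 190 CPM with no rapa (log2 fold change -0.25 ± 0.16, edgeR adjusted p = 0.223), and was the only core gene with both with rapa libraries below both no rapa libraries.

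The β ring holds the proteolytic sites, made by PRE3, PUP1 and PRE2, and 3 of its 7 genes rose while 0 fell, beside the same 19.3% and 26.7% of all features. PRE7 (YBL041W), for a subunit without a proteolytic site, had 162 and 205 CPM with rapa, against 116 and 120 CPM with no rapa (log2 fold change 0.63 ± 0.17, edgeR adjusted p = 0.0096). PUP1 (YOR157C), for the site that cuts after basic residues, had 168 and 140 CPM with rapa, against 106 and 101 CPM with no rapa (log2 fold change 0.58 ± 0.17, edgeR adjusted p = 0.0139). Over all features, 34.1% had both with rapa libraries above both no rapa libraries. Neither gene had overlapping groups, but without with rapa replicate 1 PUP1 had a log2 fold change of 0.41 and did not pass (edgeR adjusted p = 0.0514). PUP3 (YER094C) had 153 and 252 CPM with rapa, against 130 and 142 CPM with no rapa (log2 fold change 0.58 ± 0.21, edgeR adjusted p = 0.0444). Leaving out with rapa replicate 2 lowered this to 0.27, which did not pass. Of the other catalytic subunits, PRE3, for the site that cuts after acidic residues, had a log2 fold change of 0.28 ± 0.20, and PRE2, for the site that cuts after bulky hydrophobic residues, had 0.17 ± 0.16. PRE1 had 0.27 and PRE4 (YFR050C) 0.02, the lowest of the ring, with 157 and 206 CPM with rapa and 171 and 186 CPM with no rapa.

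The ATPases of the base form the ring that pulls substrates into the core. In each of the 5 ATPase genes measured, both with rapa libraries lay above both no rapa libraries, against 34.1% of all tested features, and 1 of the 5 passed the test. RPT6 (YGL048C) had 321 and 391 CPM with rapa, against 243 and 251 CPM with no rapa, a log2 fold change of 0.53 ± 0.18 (edgeR adjusted p = 0.0292). RPT2 and RPT4 each had a log2 fold change of 0.41, with edgeR adjusted p of 0.0982 and 0.0717. RPT5 had 0.23 and RPT3 (YDR394W) 0.21, the lowest of the ring. RPT3 had 377 and 461 CPM with rapa and 357 and 370 CPM with no rapa.

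The other base genes differed widely in level. RPN1 and RPN2 encode the largest subunits, scaffolds that bind ubiquitin receptors and shuttle factors, and had the most reads of all subunit genes. RPN1 (YHR027C) had 2177 and 1689 CPM with rapa, against 1347 and 1315 CPM with no rapa, without overlap between groups, and its log2 fold change of 0.54 ± 0.26 did not pass (edgeR adjusted p = 0.108). RPN2 (YIL075C) had 1952 and 1860 CPM with rapa, against 1678 and 1602 CPM with no rapa (log2 fold change 0.22 ± 0.25). RPN10 (YHR200W) had 158 and 150 CPM with rapa, against 92.6 and 99 CPM with no rapa, and rose by a log2 fold change of 0.68 ± 0.16 (edgeR adjusted p = 0.00406). RPN10 overlaps a gene of the opposite strand and, as above, had no GTGGCAAA upstream. RPN13 (YLR421C), the other receptor, had 57.2 and 59.5 CPM with rapa, against 49.5 and 61.3 CPM with no rapa (log2 fold change 0.07 ± 0.19), and its groups overlapped.

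No lid gene passed the test in either direction with all 4 libraries. Without adjustment, 0 lid genes were higher and 1 was lower at p under 0.05, and DESeq2 called 0 in either direction. Without with rapa replicate 1, RPN3 was called lower (log2 fold change -0.51, edgeR adjusted p = 0.0378) and RPN8 higher (0.63, edgeR adjusted p = 0.00104), and without with rapa replicate 2, RPN9 was called lower at -0.61. RPN3 (YER021W), a scaffold subunit of the lid, had 440 and 427 CPM with rapa, against 630 and 558 CPM with no rapa, a log2 fold change of -0.46 ± 0.19 (edgeR adjusted p = 0.07). RPN9 (YDR427W), another scaffold subunit, had 232 and 343 CPM with rapa, against 374 and 383 CPM with no rapa, a log2 fold change of -0.40 ± 0.21 (edgeR adjusted p = 0.134). In both genes the with rapa libraries lay below the no rapa libraries, against 40.1% of all features. RPN11, for the enzyme that cuts ubiquitin off substrates, had a log2 fold change of -0.15 ± 0.17. Its inactive partner RPN8 (YOR261C) had 152 and 242 CPM with rapa, against 181 and 125 CPM with no rapa, the widest replicate spread of the lid relative to its level in the no rapa group, with a log2 fold change of 0.37 ± 0.23 that ran between 0.09 and 0.65 with 1 library left out. The scaffold subunits RPN7, RPN5, RPN12 and RPN6 had log2 fold changes of 0.19, 0.13, 0.06 and -0.10.

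**Figure D3:**
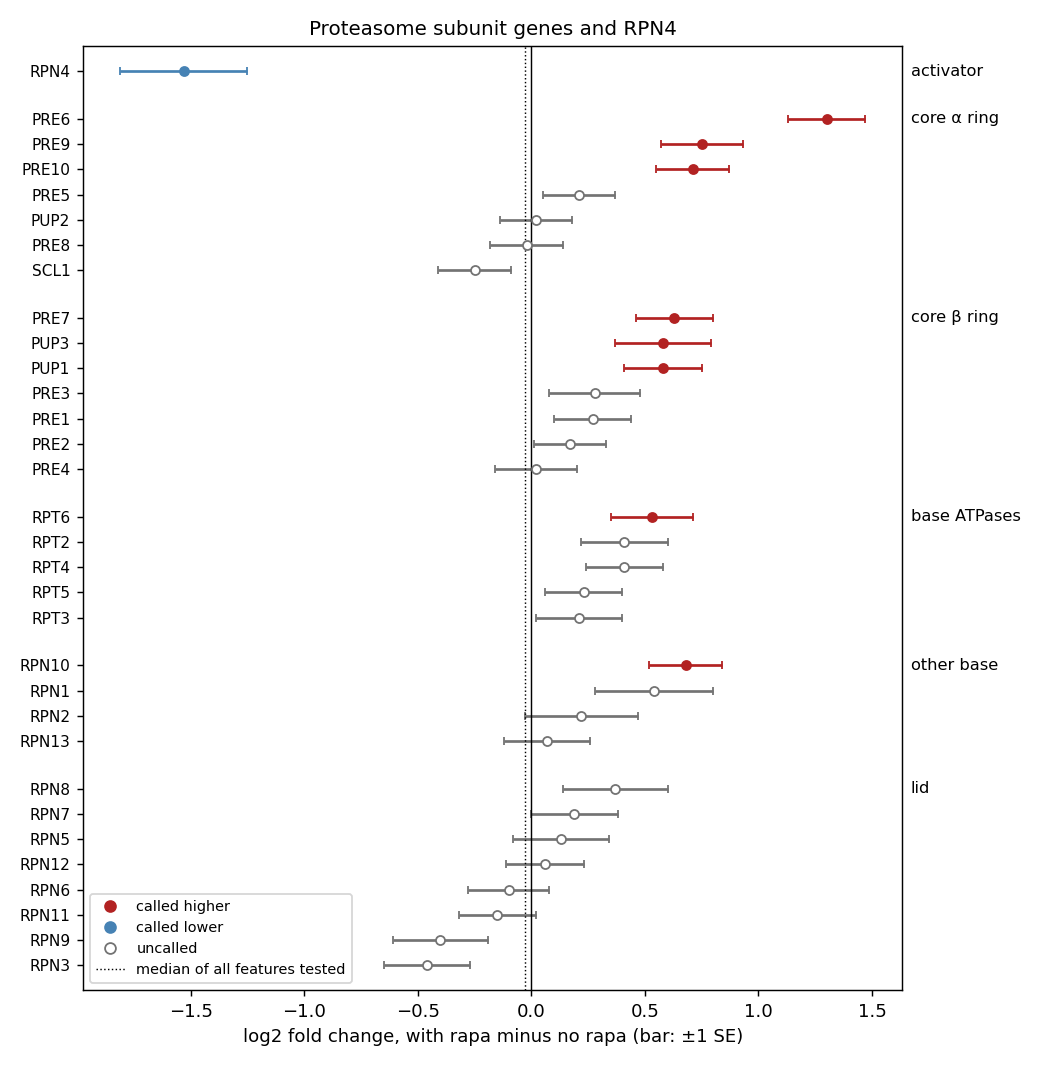
Log2 fold change with rapa minus no rapa (horizontal axis, bars ± 1 SE from edgeR) of RPN4 and 31 subunit genes grouped by subcomplex, filled where the adjusted p was under 0.05, with the median of all features dotted. RPN4 is the single member called lower at -1.53, 6 core and 2 base genes are called higher, and the 8 lid genes scatter between -0.46 and 0.37.

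Set side by side, the medians of core and base genes lay above that of all features, and the median of lid genes lay near it. The median log2 fold change was 0.27 over 14 core genes, 0.41 over 9 base genes and -0.02 over 8 lid genes, beside -0.03 over all features tested and -0.14 over 4910 open reading frames. The order of core and base was turned in 2 alternatives. Without overlapping features the medians were 0.64 and 0.29, but over only the 9 core and 5 base genes left, not the same sets of genes. Without with rapa replicate 1 the core and base medians were 0.34 and 0.31. RLE size factors moved the lid median to 0.05 and that of all features to 0.04. Such a change of scaling moves nearly all genes together and so cannot show whether the lid stays beside the bulk. Without overlapping features the lid median was 0.13 over the 5 lid genes left, against -0.03 over all features. Without no rapa replicate 2 it was -0.12, again against -0.03. The log2 fold change was positive in 12 of 14 core genes, 9 of 9 base genes and 4 of 8 lid genes. Both with rapa libraries lay above both no rapa libraries in 9 core genes, 8 base genes and 1 lid gene, RPN7, against 34.1% of all features. They lay below in 1 core gene, 0 base genes and 2 lid genes, against 40.1% of all features. The difference between the subcomplexes was not tested.

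Lid genes had the lowest median of the 3 subcomplexes in each with rapa library, while core and base genes changed places. Against the no rapa mean, the median deviation of core genes on the log2 scale was 0.17 and 0.38 in the with rapa libraries and 0.01 and -0.01 in the no rapa libraries. Base genes had 0.28 and 0.34 with rapa, against -0.01 and 0.01 with no rapa. Lid genes had -0.07 and 0.07 with rapa, against 0.04 and -0.04 with no rapa. Core genes thus differed between the with rapa libraries by more than base genes did, and the lid deviations changed sign between them. The calls depended on single libraries, and fewer of all features were called higher when either no rapa library was left out. Without no rapa replicate 1, PRE6 and PRE9 remained of the 8 called subunit genes, and without no rapa replicate 2, PRE6, PRE10 and RPN10 remained.

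Per length, the subcomplexes differed in level. The median level per kb of deposited transcript was 177 and 192 CPM in core genes with rapa, against 146 and 159 CPM with no rapa. Base genes had medians of 252 and 292 CPM per kb with rapa, against 207 and 211 with no rapa. Lid genes had medians of 195 and 231 CPM per kb with rapa, against 229 and 212 with no rapa. With rapa the lid median was thus nearer to the core median than to that of the base, while with no rapa it was about level with the base. All features had medians of 36.3 and 35.8 CPM per kb with rapa and 43.6 and 44.4 with no rapa, so the subunit genes were well above the median feature in each library.

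RPN4 stood above every subunit gene per length with no rapa and among them with rapa. It had 422 and 267 CPM per kb with rapa, against 1018 and 975 CPM per kb with no rapa. The highest subunit gene per kb was RPN1 with 684 CPM in with rapa replicate 1 and RPN2 with 619 CPM in with rapa replicate 2, against RPN2 with 559 and 533 CPM per kb in the no rapa libraries. The lowest in every library was RPN13, with 79.9 and 83.1 CPM per kb with rapa and 69.3 and 85.7 with no rapa. Across the 31 subunit genes the no rapa level per kb increased with transcript length (Spearman's rho = 0.746, a description over genes that share 4 libraries), against 0.34 over 4910 open reading frames. Within subcomplexes rho was 0.883 over 9 base genes and 0.81 over 8 lid genes, but -0.165 over the 14 core genes, whose lengths differ little. The log2 fold change had a rho of -0.192 with length over subunit genes, against -0.366 over open reading frames.

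**Figure D4:**
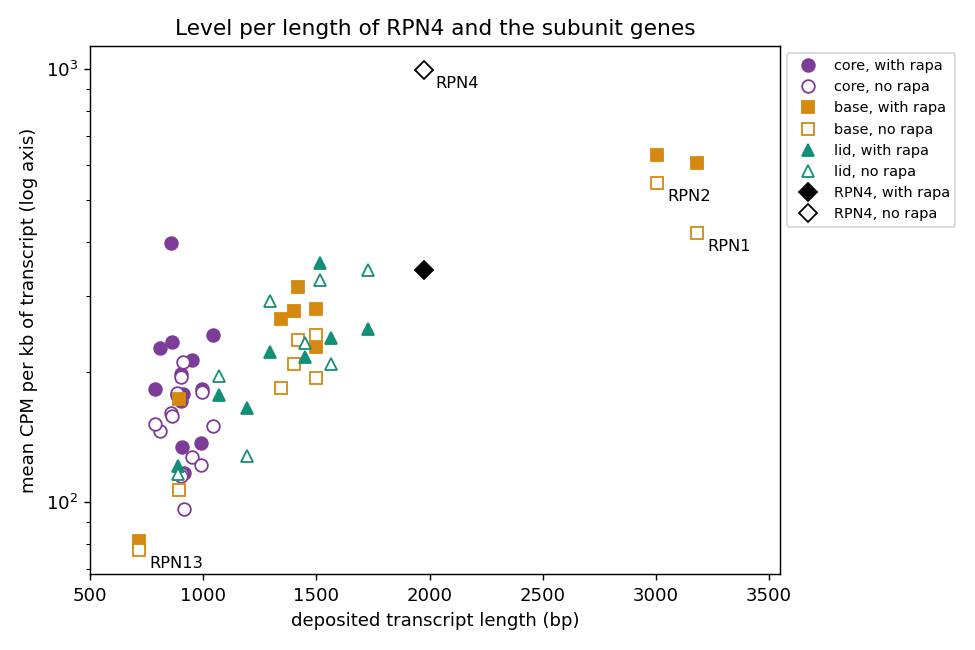
Mean CPM per kb of transcript (vertical log axis) against deposited transcript length in bp for RPN4 and the 31 subunit genes, filled for with rapa and open for no rapa, with 1 point per gene and group. RPN2 and RPN1, the longest, lie highest among subunit genes, RPN13 lies lowest, and RPN4 lies within the range of the subunits with rapa and above all of them with no rapa.

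The genes for regulators of RPN4 fell as well. Pdr1 and Pdr3 control multidrug resistance, Yap1 the oxidative stress response and Hsf1 the heat shock response, and each is known to act on RPN4. All 4 of the 4 genes fell, beside 26.7% of all features, with a median log2 fold change of -0.98. PDR1 had 177 and 180 CPM with rapa, against 447 and 414 CPM with no rapa (log2 fold change -1.27 ± 0.17, edgeR adjusted p = 0.000111). PDR3 had 116 and 99 CPM with rapa, against 221 and 215 CPM with no rapa (log2 fold change -1.02). PDR1 and PDR3 encode related factors that bind the same element. YAP1 had 387 and 343 CPM with rapa, against 671 and 721 CPM with no rapa (log2 fold change -0.93). HSF1 had 169 and 175 CPM with rapa, against 284 and 347 CPM with no rapa (log2 fold change -0.87). The highest edgeR adjusted p of these 3 genes was 0.00213. In each of the 4 genes both with rapa libraries lay below both no rapa libraries, against 40.1% of all features.

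Proteasome assembly depends on dedicated chaperones that leave the finished particle. Among 12 measured assembly and related genes, 1 was higher, 2 were lower and 9 did not pass, with a median log2 fold change of 0.08, beside 19.3% higher and 26.7% lower over all features. ECM29, BLM10 and SPG5 were not analysed here, and SEM1, a small subunit of the lid, was counted in this list. PBA1, for a chaperone of the α ring, had 84.9 and 86.5 CPM with rapa, against 53.2 and 65.9 CPM with no rapa (log2 fold change 0.52 ± 0.18, edgeR adjusted p = 0.0316). RPN14, for a chaperone of the base, had 33.8 and 30.4 CPM with rapa, against 56.4 and 56.6 CPM with no rapa (log2 fold change -0.82 ± 0.20, edgeR adjusted p = 0.00508). HSM3, for another base chaperone, had 48 and 45.1 CPM with rapa, against 75 and 70.5 CPM with no rapa (log2 fold change -0.64, edgeR adjusted p = 0.0114). PBA1 and HSM3 did not pass when either no rapa library was left out, while RPN14 passed without any 1 library. UMP1, needed for maturation of the core, had a log2 fold change of 0.23 ± 0.21 and did not pass.

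Among 18 measured genes for ubiquitin, its shuttle factors and the Cdc48 machinery, 3 rose, 3 fell and 12 did not pass, with a median log2 fold change of -0.04. The shares called were near or under the 19.3% and 26.7% of all features. UBR1 and UBR2 were not analysed here. MUB1, whose product works with the ligase Ubr2 to mark Rpn4 for degradation, had 118 and 102 CPM with rapa, against 392 and 445 CPM with no rapa. It was 3.79-fold lower with rapa (log2 fold change -1.92 ± 0.18, edgeR adjusted p = 1.09e-05). DOA4, for an enzyme that recovers ubiquitin before proteins are degraded, had 128 and 114 CPM with rapa, against 466 and 429 CPM with no rapa, and was 3.7-fold lower (edgeR adjusted p = 1.09e-05). HUL5, for a ligase that extends ubiquitin chains at the proteasome, had 205 and 185 CPM with rapa, against 278 and 274 CPM with no rapa (log2 fold change -0.50, edgeR adjusted p = 0.0259). Its call was lost with RLE size factors, library totals, DESeq2 and open reading frames alone, and without with rapa replicate 2 or either no rapa library.

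UBA1 had 5762 and 2691 CPM with rapa, against 2076 and 1840 CPM with no rapa, a log2 fold change of 1.11 ± 0.37 (edgeR adjusted p = 0.0281). Its with rapa libraries differed from each other by more than the lower of them differed from the no rapa libraries, and without with rapa replicate 1 the log2 fold change was 0.43 and did not pass, nor did it pass without either no rapa library. CDC48 had 2838 and 2341 CPM with rapa, against 1648 and 1423 CPM with no rapa (log2 fold change 0.75 ± 0.27, edgeR adjusted p = 0.0398). SHP1, for a cofactor of Cdc48, had 319 and 308 CPM with rapa, against 201 and 210 CPM with no rapa (log2 fold change 0.61, edgeR adjusted p = 0.00999). Both calls were lost when either no rapa library was left out (edgeR adjusted p between 0.0944 and 0.308), and that of CDC48 also without with rapa replicate 1 (0.0523). The other Cdc48 partners measured had 0.23 for NPL4, -0.42 for UFD1 and -0.11 for UFD2, none past the threshold.

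**Figure D5:**
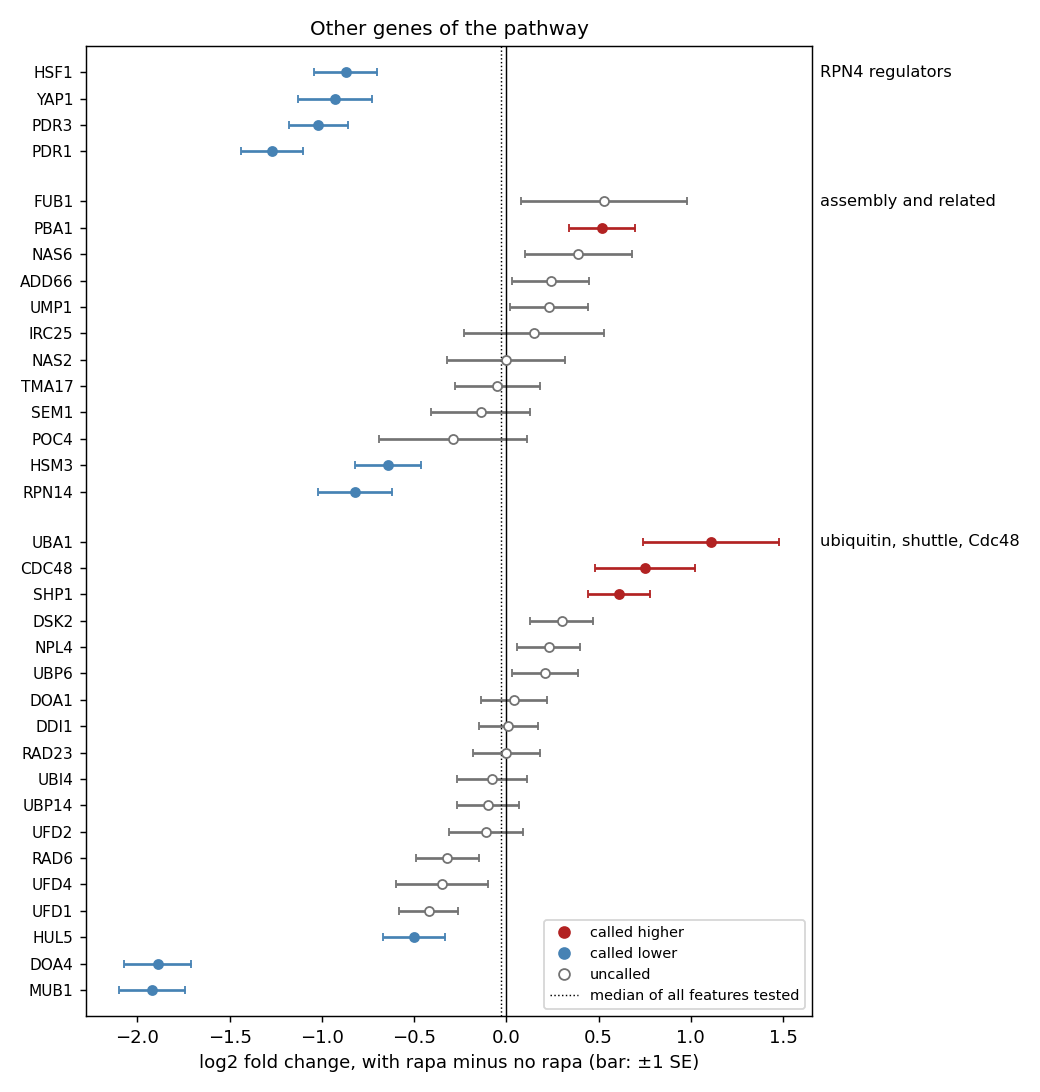
Log2 fold change with rapa minus no rapa (horizontal axis, bars ± 1 SE from edgeR) of 4 RPN4 regulators, 12 assembly and related genes and 18 ubiquitin genes, filled where the adjusted p was under 0.05. The 4 regulators, MUB1 and DOA4 lie at or below -0.87, and UBA1 lies highest at 1.11 with the widest bar among the called genes.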

How the data were processed

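Labelled RNA of 2 with rapa and 2 no rapa libraries was compared, grouped by title and group label. The authors deposited raw read counts per transcript and the transcript annotation. STAR 2.3.0, HTSeq and SAMtools are named per the submitters' processing notes, with R64 and sacCer3 as builds; their roles, filters and strand setting are not given in the sources used here. Rows naming no feature were left out (ambiguous reads were at most 0.093%, and the row for multiply aligned reads held 0). Spike-ins were not analysed here, nor was SSL2. Replicates differed by a chi-square of 65.7 (with rapa) and 80.4 (no rapa) per degree of freedom, far above sampling noise, so no library copied another. Another deposited feature overlaps 12 of the 32 members.

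All features passing filterByExpr (5707) were fitted together with edgeR 4.0.16 in R 4.3.3 (TMM, quasi-likelihood F-test, two-sided, Benjamini-Hochberg, threshold 0.05). The SE is derived from the test (size of the log2 fold change over the root of F). The test was checked on simulated counts. It recovered 63 of 100 changes of 1 on the log2 scale and 87 of 100 changes of 2, with 7 false calls among 157. Far fewer features were changed there than were called in the data. Smaller changes, the size seen in most subunit genes, were not simulated, so the check does not cover them. DESeq2 1.42.0, other scalings, no filter, open reading frames alone, features without overlaps, a replicate block and each library left out were alternatives. Of the 6030 features, 4842 matched R64 by systematic name and lay inside their deposited transcript, so sequences were read from the R64 genome of RefSeq. Values per library are given for RPN4, every called member, and the highest and lowest fold change of each ring or subcomplex. They are also given for up to 6 called genes of each other list by adjusted p. RPN1, RPN2, RPN9, UMP1, UBI4, NPL4, UFD1, UFD2, NAS6, UBP6, RPL11A, TGL3 and XUT_15F-453 were added after their values were seen. The members and lists were chosen with earlier results of these data known.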

Additional observations from a re-analysis of the deposited data

How the results depend on the processing

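RPN4 and its 4 regulators kept their direction and call wherever tested, with RPN4 between -1.93 and -1.15 on the log2 scale when 1 library was left out. Features tested numbered 5707, and 2760 without features that overlap another, so the counts called in these 2 settings have different totals. The number of features called was 2623, 1330 without features that overlap another, and 1588 to 3312 with 1 library left out. Subunit genes called higher numbered 8, and 2 to 10 with 1 library left out, and those called lower 0, and 0 to 1. For core genes these leave-one-out counts were 2 to 6 higher, for base genes 0 to 4, and for lid genes 0 to 1 in either direction. Base genes called higher numbered 5 with DESeq2, library totals, open reading frames alone and the replicate block. The base median of 0.41 was 0.47 with DESeq2, 0.48 with RLE size factors, 0.51 with library totals, 0.53 with open reading frames alone, 0.29 without overlapping features, and 0.31 to 0.39 with 1 library left out. Under library totals, open reading frames alone and without overlapping features, the core median was 0.39, 0.40 and 0.64, and the lid median 0.09, 0.10 and 0.13; with 1 library left out the core median ran between 0.26 and 0.34 and the lid median between -0.12 and 0.03. Library totals and open reading frames alone moved the median of open reading frames by 0.11 and 0.12. RLE size factors and DESeq2 each moved it by 0.07. Part of the differences in these settings is thus the centring. Without overlapping features, 19 subunit genes were tested (9 core, 5 base and 5 lid), so the medians of that setting are over fewer genes. In that setting 2 regulators were tested and lower. Only 2 of the 12 assembly genes were tested there, with 0 higher and 1 lower. Library totals left 1 assembly gene lower. With 1 library left out, assembly genes ran between 0 and 3 higher and between 1 and 2 lower, and ubiquitin genes between 0 and 5 higher and between 2 and 5 lower. PRE4, uncalled throughout, turned negative without the filter (-0.00087) and without no rapa replicate 1 (-0.05) or with rapa replicate 2 (-0.10); with 1 library left out it ran between -0.10 and 0.17. RPN13 likewise ran between -0.09, without no rapa replicate 1, and 0.22. Where no construction is named, the cause was not tested. Same-numbered libraries deviated together with a correlation of 0.233, but with only 2 pairs the numbers are not taken to pair samples; with the replicate block, 2970 features were called, with 2 subunit genes lower, both in the lid (RPN3 and RPN9). Leaving out a library leaves 1 in its group, assumed to vary like the others.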
